A study of Mus musculus with 3 samples.

Results

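The interleukin-6 (IL-6) family cytokines and their gp130 receptors were examined in LPS-challenged macrophages, as 5 ligands (*Il6*, *Lif*, *Osm*, *Il11* and *Clcf1*) and 4 receptor chains (*Il6ra*, *Il6st*, *Osmr* and *Lifr*). The members were chosen by gene name, and these 9 genes are represented by 18 of the 46056 probes that carry a symbol, among 26840 genes. RNA came from RAW 264.7 cells, a mouse macrophage line that was the same in all groups, and was hybridised in 1 colour to microarrays with 1 array for each of 3 conditions. Macrophages in the LPS group received 50 ng/mL LPS, the cell wall component of Gram-negative bacteria that is sensed by TLR4, without lactobacilli. Macrophages in the CRL1505 + LPS group were first incubated for 24 h with 50000000 cells/mL of *L. rhamnosus* CRL1505 and washed before the same LPS dose, and those in the CRL1506 + LPS group were given *L. plantarum* CRL1506 in the same way. The series design and the study's methods give 12 h of LPS, whereas the sample descriptions give 3 h, and this was not settled here. All groups received LPS, and cells without it were not analysed here. The question addressed was how the strains change the transcriptional response to TLR4 activation.

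With 1 array per condition no replicate check and no test was possible, and each difference is between single arrays. Levels are given as log2 signal relative to the 75th percentile of the array, ratios as log2 differences of these levels, and the threshold for counting a gene was a 2-fold ratio in either direction. The share of gene spots well above background was between 48.5% and 55.3%, and no gene spot was saturated. The SD of the log2 ratio between different probes of the same gene had a median of 0.23 for CRL1505 + LPS against LPS. It was 0.22 for CRL1506 + LPS against LPS and 0.33 for CRL1505 + LPS against CRL1506 + LPS. This SD served as the spread against which differences were read. It covers disagreement between probes on the same RNA, and not variation between cultures, labellings or slides. The CRL1505 + LPS array came from a different slide and scan run than the other arrays, which had both in common, so that slide and strain cannot be told apart for every CRL1505 value. The 9 macrophage markers were well above background on each array, with a summed log2 level between 9.19 and 9.49, while the summed levels of T cell, B cell, neutrophil, fibroblast, epithelial and endothelial markers lay between -3.83 and 0.40. Of these 20 markers of other cell types, 7 were well above background with LPS, 8 with CRL1505 + LPS and 12 with CRL1506 + LPS. Single macrophage markers differed, with log2 ratios to LPS of 2.27 for *Adgre1* and -1.47 for *Csf1r* with CRL1505, and their part in the results was not tested. RNA was taken from whole cultures, so that fewer expressing cells and less RNA per cell cannot be told apart.

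Cytokines of the IL-6 family signal through gp130, the shared receptor chain encoded by *Il6st*. IL-6 first binds its own receptor chain IL-6R (*Il6ra*), whereas leukemia inhibitory factor (*Lif*) and oncostatin M (*Osm*) assemble gp130 with the LIF receptor (*Lifr*) or the oncostatin M receptor (*Osmr*). The assembled receptors activate JAK kinases, which phosphorylate STAT3, and STAT3 induces its own inhibitor SOCS3. In macrophages, *Il6* is a classical LPS-induced gene whose promoter is bound by NF-kB, C/EBP, CREB and AP-1 factors and whose mRNA is short-lived.

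The stretch of 250 bases before the transcription start (RefSeq, GRCm38.p6) is shown for *Il6*, the member with the highest ratios, and for *Il6ra* and *Il6st*, the receptor chains measured on all arrays, since the letters searched were found in the first and in neither of the others. Capitals mark matches on either strand to the letters GGNNTTTCC (NF-kB), TTGNNCAA (C/EBP) and TTCNNNGAA (STAT), to TGACGT of the cyclic AMP response element (CRE), to TGANTCA as bound by AP-1 factors, and to TATAAA of the core promoter. Promoter windows were found for 7 of the 9 members, with *Osm* and *Clcf1* not matched.
Il6 (chr5:30012864-30013113, plus strand): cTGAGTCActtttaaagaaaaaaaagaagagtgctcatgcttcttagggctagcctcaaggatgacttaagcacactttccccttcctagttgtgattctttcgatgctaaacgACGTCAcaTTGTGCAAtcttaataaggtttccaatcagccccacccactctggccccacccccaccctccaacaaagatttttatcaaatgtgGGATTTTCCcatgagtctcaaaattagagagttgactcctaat
Il6ra (chr3:89913197-89913446, minus strand): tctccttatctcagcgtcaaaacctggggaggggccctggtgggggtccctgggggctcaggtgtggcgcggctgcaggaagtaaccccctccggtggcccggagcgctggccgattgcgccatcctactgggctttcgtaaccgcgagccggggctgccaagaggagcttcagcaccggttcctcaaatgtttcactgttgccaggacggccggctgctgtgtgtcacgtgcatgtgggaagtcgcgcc
Il6st (chr13:112463820-112464069, plus strand): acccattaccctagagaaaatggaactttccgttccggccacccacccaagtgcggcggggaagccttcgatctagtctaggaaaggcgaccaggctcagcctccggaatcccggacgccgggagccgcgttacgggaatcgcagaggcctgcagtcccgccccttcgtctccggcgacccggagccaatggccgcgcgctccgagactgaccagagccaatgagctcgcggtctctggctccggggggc
The *Il6* window held an AP-1 match 249 to 243 bases before the start, a CRE match at 136 to 131, a C/EBP match at 128 to 121 and an NF-kB match at 43 to 35, with no overlap between them. Such matches were present in 6.75%, 6.47%, 5.65% and 4.93% of 32851 mouse promoter windows of the same length, respectively. With a further G in front, the NF-kB letters occurred in 1.41% of the windows, that of *Il6* included. The windows of *Il6ra*, *Il6st*, *Osmr* and *Lifr* held none of the letters searched, and that of *Lif* held 1 AP-1 match. *Il11* had 2 windows, of which 1 held an AP-1 match and the other no match. No window of a member held the STAT or core promoter letters, which were found in 7.02% and 12.4% of all windows. NF-kB, C/EBP, CREB and AP-1 factors were already known to bind the *Il6* promoter, so that its matches are no independent result. Other forms of these motifs were not searched, so that a window without a match can still hold one. These matches describe sequence only, and binding was not measured.

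The CRL1505 and CRL1506 strains were both accompanied by more *Il6* transcript than LPS alone. The level of *Il6* was 2.98 with LPS, 7.23 with CRL1505 + LPS and 5.33 with CRL1506 + LPS, corresponding to signals of 5849, 77384 and 27994. The LPS array was lowest and the CRL1505 + LPS array highest. *Il6* was thus 19.0-fold higher with CRL1505 (log2 ratio 4.25), where it ranked 8 from the top of 13239 genes measured on both arrays, and 5.10-fold higher with CRL1506 (log2 ratio 2.35), where it ranked 60 of 14401. Between the strains, *Il6* was 3.73-fold higher with CRL1505 (log2 ratio 1.90), ranking 154 of 13313. The second *Il6* probe, which starts at base 784 of the transcript (chr5:30346159-30346218, mm9) rather than base 992 (chr5:30346367-30346426, mm9), gave log2 ratios of 4.23 with CRL1505, 2.19 with CRL1506 and 2.04 between the strains. Both probes gave the same order of the arrays.

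**Figure D1:**
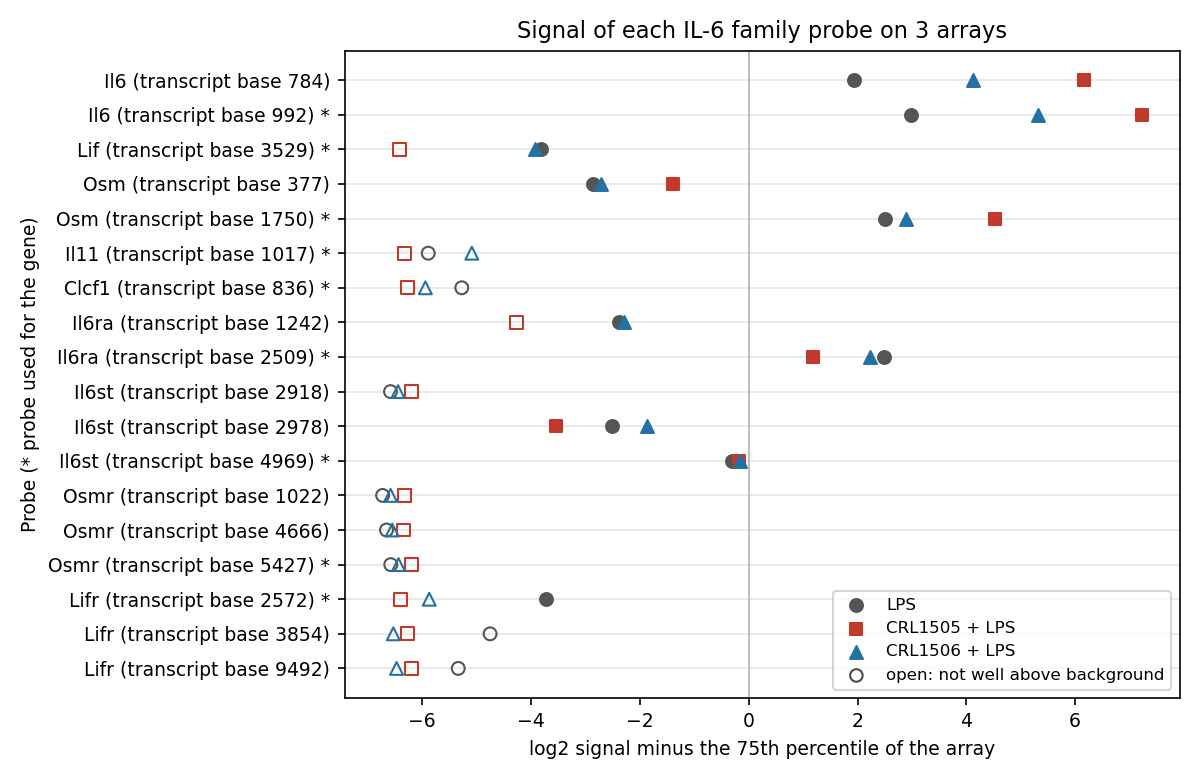
Level of each of the 18 probes on the 3 arrays, as log2 signal minus the 75th percentile of the array (x axis), with the probe and its first transcript base on the y axis. Points are single arrays without error bars, open points were not well above background, and the asterisk marks the probe used for a gene. *Il6* lay at 2.98, 7.23 and 5.33 with LPS, CRL1505 + LPS and CRL1506 + LPS, whereas the *Osmr* probes lay between -6.73 and -6.20.

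*Osm*, a macrophage product that shares receptor chains with LIF, passed 2-fold with CRL1505 and not with CRL1506. Its level was 2.50 with LPS, 4.52 with CRL1505 + LPS and 2.90 with CRL1506 + LPS. The LPS and CRL1506 + LPS arrays lay close together and the CRL1505 + LPS array stood above both. The ratio was 4.05-fold with CRL1505 (log2 ratio 2.02), 1.31-fold with CRL1506 (log2 ratio 0.39) and 3.08-fold between the strains (log2 ratio 1.62). The value for CRL1506 exceeded the median spread of 0.22 between probes of a gene but not its 90th percentile of 0.79. The second *Osm* probe was much dimmer (levels of -2.86, -1.39 and -2.71) and gave smaller log2 ratios of 1.48, 0.15 and 1.32. Its sequence is given with that of the second *Il6ra* probe, since each is a second reading, on the same RNA, of a gene that passed 2-fold.
Osm (chr11:4139500-4139559, mm9, plus strand): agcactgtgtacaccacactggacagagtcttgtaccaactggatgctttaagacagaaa
Il6ra (chr3:89680743-89680802, mm9, minus strand): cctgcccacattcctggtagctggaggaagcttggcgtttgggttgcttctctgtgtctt
The *Osm* probe used starts at base 1750 (chr11:4140873-4140932, mm9) and that of *Il6ra* at base 2509 (chr3:89674054-89674113, mm9).

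The remaining ligands were dim or undetected. *Lif*, which maintains stem cells and is also released in inflammation, had a level of -3.82 with LPS and -3.93 with CRL1506 + LPS, and was not well above background with CRL1505 + LPS. Its log2 ratio was -0.11 with CRL1506, within the spread between probes. For CRL1505 only a bound could be given, since the dim side was set to the lowest signal well above background on its array. As scaled here, *Lif* was at least 1.23-fold lower than with LPS and at least 1.14-fold lower than with CRL1506. The bound against LPS could be given under 6 other normalizations. It shrank to a log2 ratio of -0.009 after a shift by the median. The bound against CRL1506 could be given under only 3 other normalizations. *Lif* and *Osm* are neighbours on chromosome 11 with 0 protein-coding genes between them, and their probes (chr11:4172032-4172091 for *Lif*) lay 31.1 kb apart. With CRL1505 the ratio of *Osm* to LPS was above 0 and that of *Lif* below. *Il11* (chr7:4724847-4724906, mm9) and *Clcf1* (chr19:4222480-4222539, mm9), which encode interleukin-11 and cardiotrophin-like cytokine factor 1, did not reach the level well above background with LPS or either strain, and no fold is given for them.

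Among the receptor chains, *Il6ra* was the one past 2-fold on the probe used. It encodes the chain that gives a cell its sensitivity to IL-6. Its level was 2.49 with LPS, 1.19 with CRL1505 + LPS and 2.24 with CRL1506 + LPS. The CRL1505 + LPS array was lowest, and the other two were close together. *Il6ra* was 2.47-fold lower with CRL1505 than with LPS (log2 ratio -1.30) and 2.07-fold lower than with CRL1506 (log2 ratio -1.05). With CRL1506 the log2 ratio to LPS was -0.25, close to the spread of 0.22. On the second *Il6ra* probe the LPS and CRL1506 + LPS levels were -2.38 and -2.30, and CRL1505 + LPS was not well above background, which gave a decrease of at least 3.34-fold against LPS and at least 3.55-fold against CRL1506.

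*Il6st*, the gp130 chain that the receptors for these ligands share, had levels of -0.30 with LPS, -0.17 with CRL1505 + LPS and -0.15 with CRL1506 + LPS on its brightest probe (base 4969, chr13:113296586-113296645, mm9). The 3 arrays differed by less than the spread between probes, with log2 ratios of 0.13 for CRL1505, 0.15 for CRL1506 and -0.02 between the strains. The probes of *Il6st* disagreed, however. A dimmer probe (base 2978, chr13:113294595-113294654, mm9) had levels of -2.52, -3.53 and -1.87, and its log2 ratios were -1.01, 0.65 and -1.66, while a probe for another transcript was at background. The direction of *Il6st* is therefore not settled by these arrays.

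*Osmr* was at background on all 3 of its probes and all arrays. *Lifr* was well above background only with LPS, at a level of -3.73 on the probe at base 2572 (chr15:7135072-7135131, mm9). As scaled here, *Lifr* was at least 1.31-fold lower with CRL1505 and at least 1.59-fold lower with CRL1506. Under normexp background correction these bounds shrank to log2 ratios of -0.03 and -0.41. The other 2 *Lifr* probes did not reach that level on any array. *Osmr* and *Lifr*, the receptor chains that pair with gp130 for oncostatin M and LIF, lie next to each other on chromosome 15 with 0 protein-coding genes between them.

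Counted over the family, 6 members could be compared for CRL1505 + LPS against LPS, of which 2 were at least 2-fold higher (*Il6* and *Osm*) and 1 at least 2-fold lower (*Il6ra*). Of 15603 genes compared, 9.93% were at least 2-fold higher and 8.41% lower. For CRL1506 + LPS, 1 of 6 members was higher (*Il6*) and 0 were lower, against 5.67% and 3.53% of 16279 genes. Between the strains, 2 of 5 members were higher with CRL1505 (*Il6* and *Osm*) and 1 was lower (*Il6ra*), against 9.02% and 7.47% of 15780 genes. The median size of the log2 ratio was 0.85, 0.32 and 1.05 in the members, and 0.41, 0.26 and 0.42 over all genes compared, where lower bounds (2, 1 and 1 of the members) were entered at the size of the bound. With so few members these figures are descriptive. The comparisons with LPS share the LPS array, so that they are not independent of each other.

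*Il6*, *Osm* and *Il6ra* kept their direction under each scaling. Over 7 other normalizations the log2 ratio of *Il6* was between 3.74 and 4.54 with CRL1505 and between 2.15 and 2.49 with CRL1506, and that of *Osm* with CRL1505 between 1.51 and 2.31. *Il6ra* with CRL1505 lay between -1.81 and -1.01, and between the strains it was past 2-fold under 6 of 7, with -0.56 under a shift by the median. *Il6st* changed sign with the scaling, from -0.37 to 0.43 with CRL1505, from -0.05 to 0.24 with CRL1506 and from -0.42 to 0.48 between the strains. The scaling moved all genes together, since the median log2 ratio for CRL1505 against LPS was 0.06 as used, 0.35 after a shift by the median and -0.45 after scaling to spike-in probes. Of all genes past 2-fold with CRL1505, 54.1% were higher as used, 76.1% after the median shift and 20.1% after spike-in scaling. The corresponding shares were 61.6%, 43.4% and 52.8% for CRL1506, and 54.7%, 89.0% and 23.1% between the strains.

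**Figure D2:**
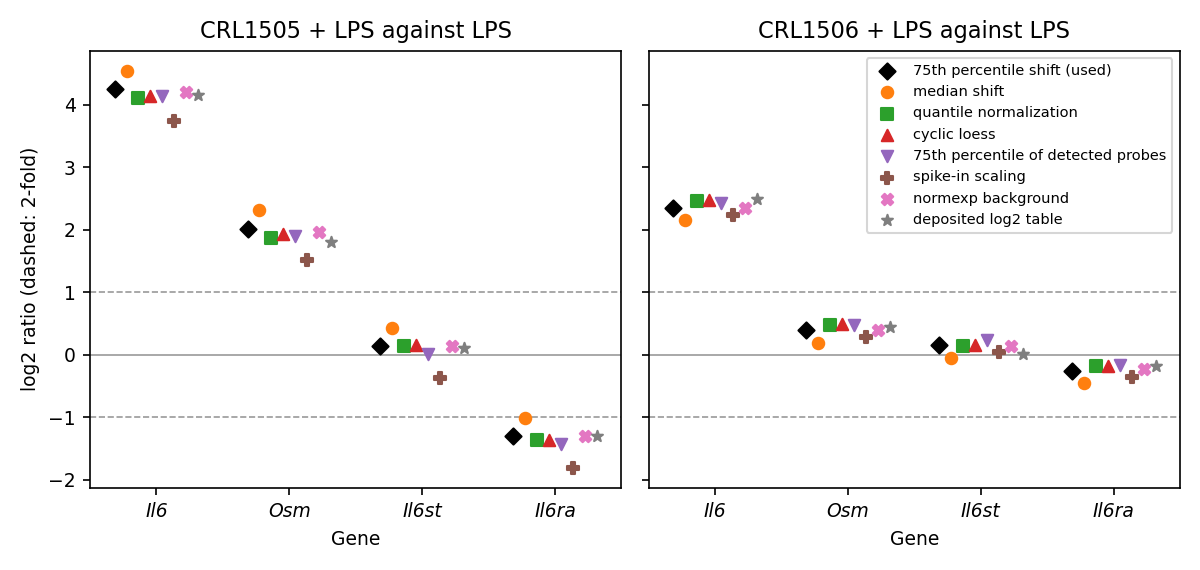
Log2 ratio to LPS (y axis) of the 4 members measured on each array (x axis), with 1 point per normalization. Dashed lines mark 2-fold. With CRL1505, *Il6*, *Osm* and *Il6ra* stay past 2-fold under each normalization, with *Il6* between 3.74 and 4.54, while *Il6st* lies on both sides of 0.

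The other genes of the gp130 pathway were taken from 6 lists with 57 genes, chosen with earlier results of these data known. With CRL1505, 13 of the 51 genes compared were at least 2-fold higher than with LPS and 0 were lower, against 9.93% and 8.41% of all genes, with a median log2 ratio of 0.39 against 0.01 over all genes. After spike-in scaling 6 were higher and 3 lower. With CRL1506, 2 of 51 were higher and 3 lower, against 5.67% and 3.53% of all genes, with a median of -0.22 against -0.06. Between the strains, 18 of 52 were higher with CRL1505 and 1 was lower, against 9.02% and 7.47% of all genes, with a median of 0.80 against 0.03.

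The same shares of all genes apply to the counts of the single lists, which are small. Of the other ligands, 1 of 4 was higher with CRL1505. *Il27*, which encodes a subunit of the cytokine IL-27, had a log2 ratio of 1.19 with CRL1505 and -0.05 with CRL1506, and *Ebi3*, which encodes the other subunit of IL-27, had 0.28 and -0.77. *Cntf*, the ciliary neurotrophic factor, had -0.16 and 0.16. The *Il27* ratio with CRL1505 fell as low as 0.68 over the normalizations, under 2-fold. Of the other receptors, *Il11ra1*, the receptor chain for interleukin-11, had -0.10 and 0.39, and 1 of 2 receptors compared passed 2-fold with CRL1506, namely *Il27ra* (log2 ratio 1.07), which was dim and was named after its value was seen. Over the normalizations this ratio fell as low as 0.27, where the call was lost.

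Of the kinases, adapters and STATs, 3 of 9 were at least 2-fold higher with CRL1505 and 0 with CRL1506. *Stat3*, the main transcription factor below gp130, had levels of 2.49 with LPS, 4.20 with CRL1505 + LPS and 3.05 with CRL1506 + LPS. Its log2 ratio of 1.71 with CRL1505 was the highest of 3 probes, which lay between 1.41 and 1.71. With CRL1506 its log2 ratio of 0.57 was the lowest of the probes, which reached 1.04, and between the strains the probes lay between 0.41 and 1.14. *Jak2* had log2 ratios of 1.53 with CRL1505 and 0.54 with CRL1506. By comparison, *Jak1*, the kinase that gp130 signaling depends on most, had 0.33 and 0.01, and *Tyk2* had 0.50 and -0.37.

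Of the inhibitors and receptor sheddases, 2 of 8 were higher with CRL1505, against 9.93% of all genes. *Socs3*, which binds gp130 and blocks JAK activity, had levels of 5.33 with LPS, 6.81 with CRL1505 + LPS and 4.84 with CRL1506 + LPS, so that CRL1505 + LPS was above and CRL1506 + LPS below LPS (log2 ratios of 1.48 and -0.49). *Socs1*, a related inhibitor of JAK kinases, had 1.54 and 0.30. Over the normalizations *Socs3* and *Socs1* fell as low as 0.98 and 1.03 with CRL1505, so that *Socs3* did not always pass 2-fold. *Adam17*, the protease that releases soluble IL-6R from the cell surface, had -0.58 and -0.43 on the probe used, with its 3 probes between -1.30 and -0.45 for CRL1505, and *Pias3*, an inhibitor of STAT3, had -0.45 and -0.78.

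Of 12 genes known as STAT3 targets, 12 were above LPS with CRL1505 on the probe used, against 7904 of all 15603 genes, and 5 of these were past 2-fold, against 9.93% of all genes. The second probe of *Myc* was below LPS, at -0.59 against 0.34 on the probe used. By comparison, 5 were above and 7 below LPS with CRL1506, with 1 past 2-fold in each direction. *Lcn2*, encoding the iron-siderophore-binding protein lipocalin 2, was 15.1-fold higher with CRL1505 (log2 ratio 3.92) and 3.12-fold higher with CRL1506 (1.64). *Il1rn*, the interleukin-1 receptor antagonist, was 8.10-fold higher with CRL1505 (3.02) and had 0.90 with CRL1506. The kinase gene *Pim1* had 1.26 and -0.22, and *Ier3* had 1.40 and 0.01. Under spike-in scaling 4 of the 12 (*Bcl3*, *Myc*, *Mcl1* and *Timp1*) were below LPS with CRL1505. Over the normalizations *Ier3*, *Pim1* and *Saa3* fell as low as 0.90, 0.75 and 0.63 with CRL1505, where the call was lost. *Lcn2* and *Il1rn* stayed past 2-fold under each. The list was chosen with earlier results of these data known, so that these counts are descriptive. Several genes of the list are also known targets of NF-kB.

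Of 16 genes for *Il6* transcription and mRNA decay, 2 were higher than LPS with CRL1505 (12.5%) and 1 was lower with CRL1506 (6.25%). These shares are near the 9.93% and 3.53% of all genes. Between the strains, 5 of 16 were higher with CRL1505 (31.25%) and 0 lower, against 9.02% and 7.47% of all genes. On the probe used, 13 of 16 were above LPS with CRL1505, against 7904 of 15603 genes. With CRL1506, 13 of 16 were below LPS, against 9323 of 16279 genes. These counts depend on the scaling. With CRL1505, only *Nfkb1*, *Cebpb*, *Fos*, *Zfp36* and *Arid5a* stayed above LPS under each normalization on the probe used. With CRL1506, the sign changed under some normalization for *Fos*, *Zfp36*, *Arid5a*, *Rc3h2* and *Khsrp*. *Fos*, a subunit of AP-1, had log2 ratios of 1.76 with CRL1505 and 0.13 with CRL1506. *Zfp36*, encoding the mRNA decay factor tristetraprolin, had 1.36 and -0.11, and *Arid5a*, which stabilises *Il6* mRNA, had 0.98 and 0.09. *Zc3h12a*, encoding the endonuclease Regnase-1 that degrades *Il6* mRNA, was 2.26-fold lower with CRL1506 (log2 ratio -1.18) on the probe used, while its second probe had -0.49 and did not pass 2-fold. With CRL1505 it had -0.21.

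**Figure D3:**
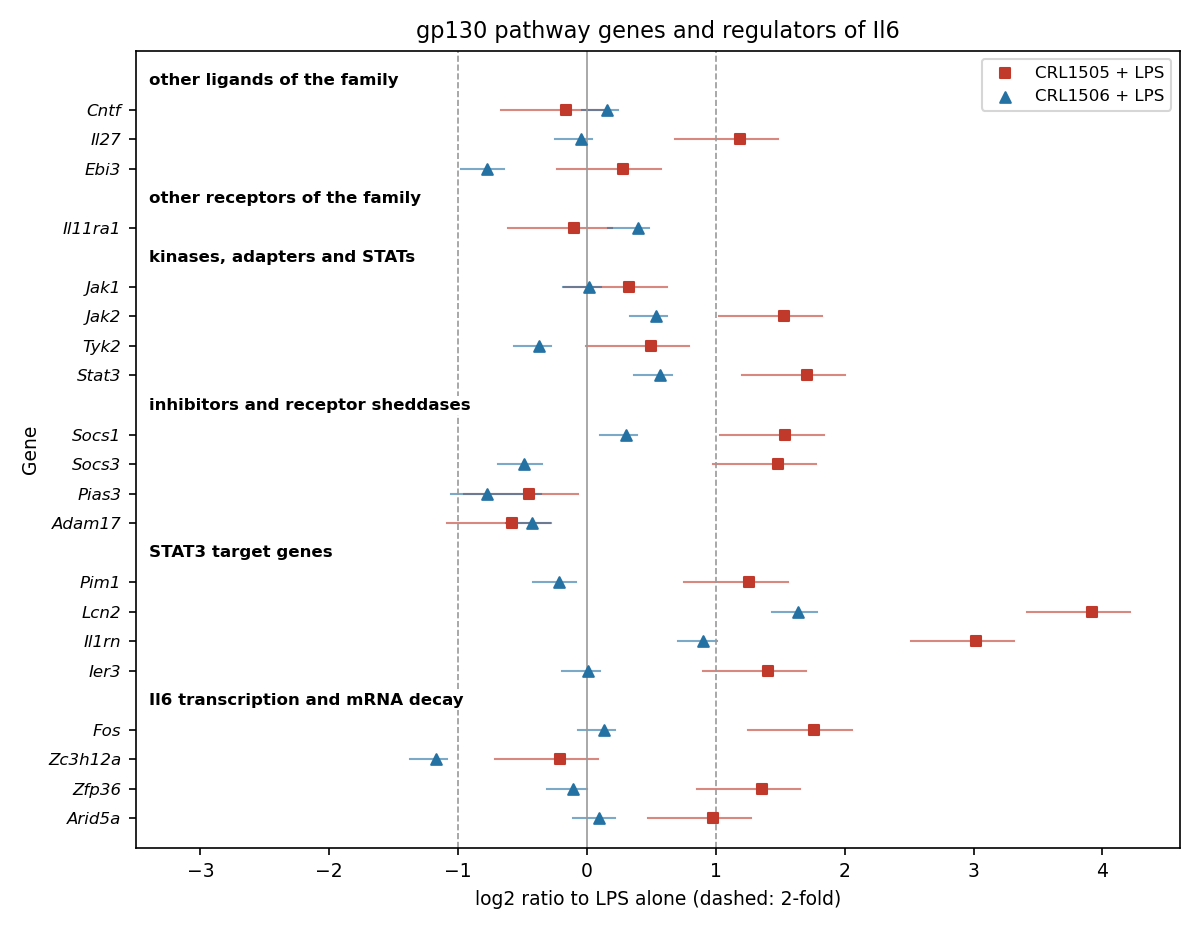
Log2 ratio to LPS alone (x axis) of genes named from the 6 pathway lists (y axis), with squares for CRL1505 + LPS and triangles for CRL1506 + LPS. Each point is 1 pair of arrays, and lines span the lowest and highest value over the normalizations. *Stat3*, *Socs3*, *Lcn2* and *Il1rn* lay at 1.71, 1.48, 3.92 and 3.02 with CRL1505, each to the right of its CRL1506 value.

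The genes whose pair of log2 ratios to LPS lay nearest to that of a member were taken from 13107 genes well above background on all arrays, by Euclidean distance. For *Il6* these were *Cp* (4.20 with CRL1505 and 2.39 with CRL1506), which encodes ceruloplasmin, *Slamf7* (4.29 and 2.09) and *Csf3* (3.53 and 2.35), which encodes granulocyte colony-stimulating factor. For *Osm* they were *Phf11d*, *Rin2* and *Phf11a*, all within a distance of 0.041. For *Il6ra* they were *Gm19897*, *Hist1h2ak* and *1810043G02Rik*, and for *Il6st* they were *Gm20751*, *Kansl3* and *Grin1os*. Likeness here is over 2 ratios that share the LPS array, and a short distance is common in the dense middle of the values.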

How the data were processed

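RNA of RAW 264.7 macrophages was measured on 3 SurePrint G3 Mouse GE arrays, 1 per condition. The authors deposited, per array, the Feature Extraction output, whose processed signal is an intensity with background subtracted and spatial trends removed (software version 12.0.3.1 per the file headers). A deposited table of log2 values, normalized between arrays by the authors, served as an alternative. From each log2 processed signal the array's own 75th percentile was subtracted, which was a signal of 743.1 with LPS, 517.0 with CRL1505 and 697.9 with CRL1506. Outlier spots were left out (467, 241 and 274). A gene was represented by its brightest probe, preferring probes without outlier spots. Probes dim on both arrays were not compared, and where 1 side was dim the ratio is a lower bound. Genes past 2-fold were counted. The study's methods state this threshold for comparisons with cells without LPS, whereas here it was applied to strain + LPS against LPS and between the strains. Its *t*-test was not run for want of replicates. The number of arrays limits the precision, and the median SD over repeated spots was 0.045, 0.039 and 0.042.

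The members, lists and named genes were chosen with earlier results of these data known. Named genes were the members, up to 4 genes per list with the largest ratio to LPS among genes well above background on all arrays, and *Jak1*, *Stat3* and *Socs3*. Of the genes this rule gives, 2 are not reported here. For each member measured on all arrays, the 3 genes with the nearest ratios were also named. The alternatives were a median shift, quantile normalization, cyclic loess, the percentile over detected probes, spike-in scaling, normexp with an offset of 50, the deposited table, no filter on dim probes, the mean over probes, only probes measured on each array, keeping outlier spots, leaving out uneven spots, and thresholds of 1.5-fold and 4-fold. The NF-kB letters were shortened by 1 G after the promoters had been searched with the longer form, and shares are given for both. Promoters were read from RefSeq (GRCm38.p6), and probe positions are those of the files (mm9). The software was R 4.3.3 (limma 3.58.1) and Python 3.11.15 (NumPy 2.4.6, pandas 2.3.3). The procedure was run on simulated arrays, made from the LPS array with known changes and noise as between repeated spots. They held no slide effect, scaling shift or wider disagreement between probes, so that these limits were not tested.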

Additional observations from a re-analysis of the deposited data

Results flagged for a closer look

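Only the genes that the naming rule gave were looked at here. For 4 of them the CRL1505 + LPS array lay above LPS and the CRL1506 + LPS array below it. Each difference exceeded the median SD between probes of a gene (0.23 for CRL1505 and 0.22 for CRL1506), which *Pim1* exceeded only narrowly with CRL1506. Other genes of the lists met the same criterion, such as *Saa3* with 1.14 and -0.85 and *Cebpd* with 0.32 and -0.92. The pattern is therefore not particular to these 4. Of 51 list genes compared with CRL1505, 36 were above LPS, against 7904 of all 15603 genes. With CRL1506, 34 of 51 were below LPS, against 9323 of all 16279 genes. How many of all genes met both conditions was not counted. The log2 ratios to LPS were 0.28 with CRL1505 and -0.77 with CRL1506 for *Ebi3*, 0.50 and -0.37 for *Tyk2*, 1.48 and -0.49 for *Socs3*, and 1.26 and -0.22 for *Pim1*. These are values of the probe used, and a second probe of *Tyk2* had 0.09 with CRL1505, under that SD. The difference was not tested, since there is 1 array per condition, and the slide of the CRL1505 + LPS array cannot be told apart from the strain. Under spike-in scaling *Ebi3* and *Tyk2* were no longer above LPS with CRL1505, with log2 ratios of -0.23 and -0.01.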

How the results depend on the processing

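No paired analysis was possible because each condition has 1 array. Of the counts of genes past 2-fold under other settings, 67 stayed within 1.5 times the value reported and 17 did not, and no member past 2-fold changed direction. Without the filter on dim probes, 5 members were past 2-fold for CRL1505 against LPS, 2 for CRL1506 and 5 between the strains. At 1.5-fold 2 members were counted for CRL1506, and at 4-fold 0 between the strains. Pathway genes for CRL1505 against LPS numbered 2 at 4-fold. For CRL1506 they numbered 3 with normexp, the deposited table or the mean over probes, 11 at 1.5-fold and 0 at 4-fold. Between the strains they numbered 33 with the median shift and at 1.5-fold, 12 with quantile normalization or the deposited table, 9 with spike-in scaling and 3 at 4-fold. The causes were not tested, apart from thresholds and filters, which change the number of genes by construction. With the mean over probes *Il6st* had -0.44 with CRL1505, 0.40 with CRL1506 and -0.84 between the strains. Signals near background limit *Lif*, *Lifr*, *Il11*, *Clcf1* and *Osmr*.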
